A study of Saccharomyces cerevisiae with 14 samples.

Results

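The genes of homologous recombination and of the DNA damage checkpoint were examined in budding yeast exposed to low levels of methyl methanesulfonate (MMS), an agent that methylates DNA bases. The set was a list of 30 genes, found in the deposited files by standard or systematic name among 6094 measured open reading frames (ORFs). They were ordered by role into 5 groups, of 5 genes for end binding and resection, 6 for strand exchange, 5 for anti-recombination, dissolution and resolution, 8 for the checkpoint sensors and 6 for mediators and effector kinases. Recombination copies an intact sister to repair broken or stalled DNA, and it starts when nucleases trim a DNA end to a single strand that can pair with the sister. The checkpoint kinase Mec1 is recruited to the same single-stranded DNA and passes the signal through adaptor proteins to the effector kinases Rad53 and Chk1, which slow the cell cycle and support the replication forks. In yeast, lesions left by MMS block replication forks, and mutants in many of these genes are known to be sensitive to it.

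Total RNA was copied into radiolabelled cDNA and hybridised to gene membranes. The treated FF18984 arrays were 4 at the high dose of 0.0125% MMS and 4 at the low dose of 0.00125%, against 4 mock-treated arrays. At each dose the 4 arrays were cells in minimal F1 medium at 30 min, in F1 at 1 h, in rich YPD medium at 30 min and in YPD at 1 h. Strain BY4742 gave 1 array at 0.0125% MMS, against 1 mock array, both in YPD at 1 h. All cells were grown at mid log phase, and no condition was replicated. According to the labels, 1 membrane, stripped between uses, served all doses of a given medium and time, so the arrays form 5 membrane sets and the 4 FF18984 sets stand in for replicates of a dose effect. The labels do not give the order in which the doses were hybridised. An effect of dose therefore cannot be told apart from an effect of that order. Values below are quantile-normalized log2 intensities, in which a difference of 1 is a 2-fold change, and the 4 values of a dose are given in the order F1 at 30 min, F1 at 1 h, YPD at 30 min and YPD at 1 h.

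All 30 genes had a position with their ORF, and 29 of them were undisputed. MRE11, the nuclease of the end-binding complex, was not: the position with its ORF carries the gene name MRPL44, and a neighbouring position carries the name MRE11 with no ORF. Both are therefore given separately, as the ORF position and the named position, and counts are over the other 29 genes. The files list MEC1, RAD53, SRS2 and EXO1 under the older names ESR1, SPK1, HPR5 and DHS1.

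The median integral of the gene set was between 0.972 and 2.03 times the local background over the 14 arrays, against 1.08 to 2.5 times over all ORFs, so the precision of the dim genes is low. RNR2, a small subunit of ribonucleotide reductase, served as a response check. It was higher by 2.62 on the log2 scale at the high dose than in mock (SE 0.34, n = 4 sets, limma adjusted p = 0.00973) and higher in 4 of 4 sets. RNR2 had the smallest adjusted p of all 6095 features in this contrast. No feature was called in it with median centring, without background correction, or with any set except F1 at 30 min left out. Dose and the order of hybridisation cannot be told apart for RNR2 either. The dose effects of the other ribonucleotide reductase genes are not reported here. Array profiles fell into blocks. The median correlation across genes was 0.80 between FF18984 arrays within 30 min, 0.83 within 1 h and 0.40 between the times, while the BY4742 arrays, labelled 1 h, had 0.81 with the 30 min and 0.41 with the 1 h FF18984 arrays. Genes are not independent replicates, and time cannot be told apart from the membrane. Of the strain markers, 7 of 7 genes specific to a cells had a lower mean in BY4742, 0 of 4 alpha-specific genes did, and of 4 genes deleted in BY4742, LEU2 and URA3 lay below all FF18984 arrays in both BY4742 arrays. The means of the other two were 0.94 in BY4742 and 1.04 in FF18984 for HIS3, a small gap, and 3.99 and 0.90 for LYS2, which was higher.

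Many of these genes gave no signal above the membrane, most of all at the high dose after 1 h. A gene counted as at or below the background when its mean background-subtracted signal was 0 or less. In YPD at 1 h this held for 7 of 29 genes in mock, 13 at the low dose and 20 at the high dose, or 24.1%, 44.8% and 69.0%, against 11.2%, 23.1% and 33.4% of all ORFs. In F1 at 1 h it held for 2, 8 and 15 genes, with 2.58%, 16.1% and 31.4% of all ORFs. At 30 min the counts were 5, 7 and 7 in F1 and 9, 6 and 6 in YPD, and in BY4742 they were 6 at the high dose and 9 in mock. In each of the 14 arrays the share was higher for the set than for all ORFs. Dose and the order of hybridisation cannot be told apart in these counts.

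**Figure D1:**
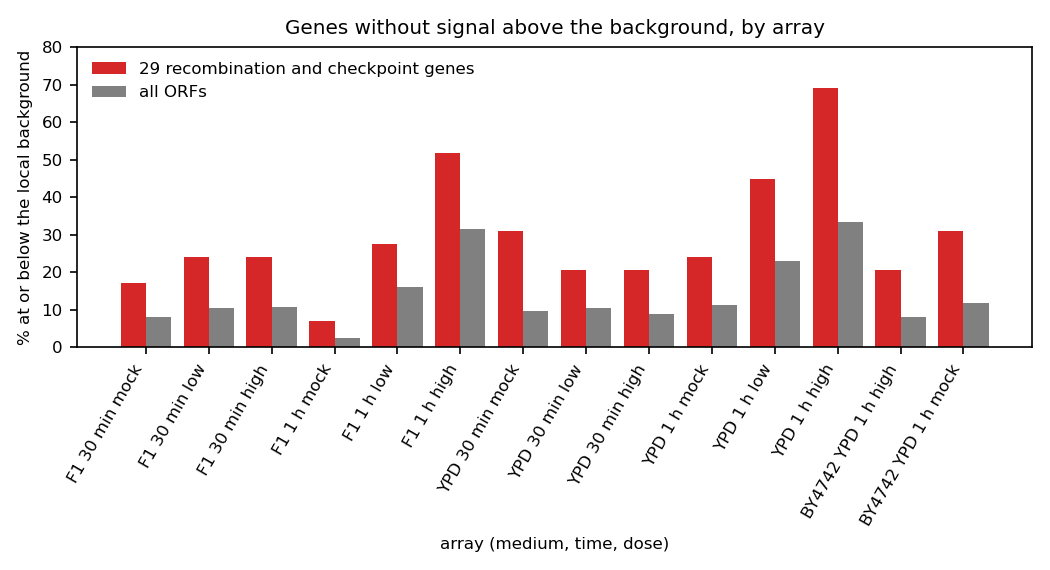
Share of genes at or below the local background (percent, y axis) in each array (x axis, by medium, time and dose), for the 29 undisputed recombination and checkpoint genes (red bars) and for all 6094 ORFs (grey bars). The red bar is the taller in every array and reaches 69.0% in the high-dose YPD array at 1 h, where all ORFs are at 33.4%.

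Over the 12 FF18984 arrays, 5 of the 29 genes, XRS2, RDH54, SGS1, LCD1 and MEC3, were above the background every time, which is 17.2% against 43.7% of all ORFs. Another 10 were at or below it in 6 or more arrays, or 34.5% against 6.91% of all ORFs. TEL1, which encodes the kinase recruited by end-binding proteins, and RAD24, the loader subunit of the checkpoint clamp, were above it in 3 of 12 arrays each, and RAD55 in 4. A gene with no signal on either spot sits at the array's floor, and normalization placed that floor higher in arrays with many such genes, at -1.93 and -1.94 in the high-dose arrays at 1 h and -2.20 in the low-dose YPD array at 1 h, against -2.38 in the mock YPD array at 1 h. Differences between arrays that are both at the floor therefore carry no information. Where the treated value alone is at a raised floor, a loss of signal can read as no change or as a rise.

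**Figure D2:**
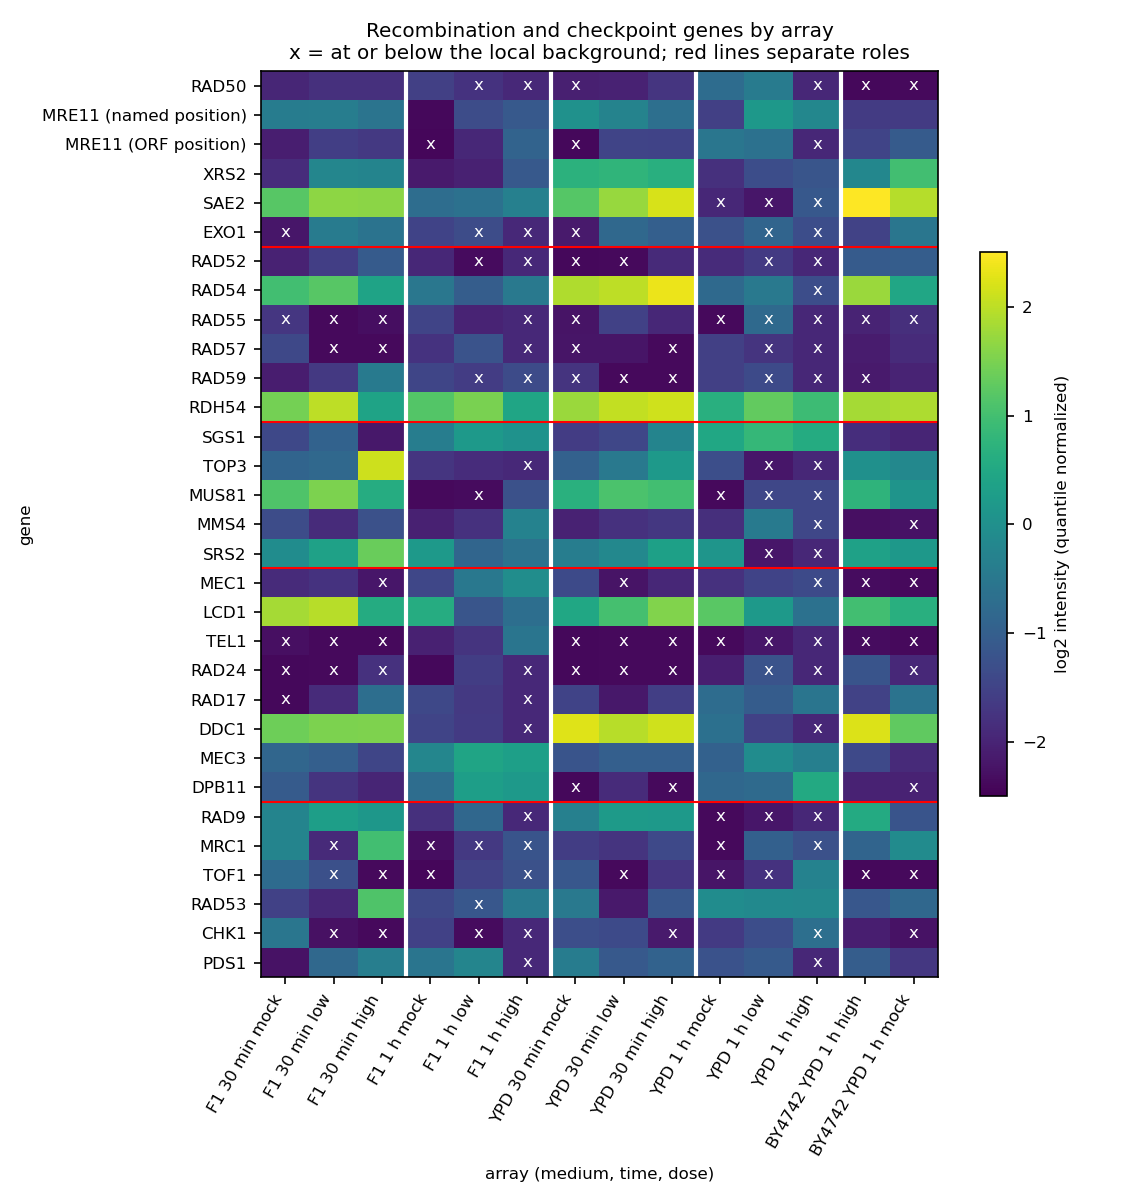
Log2 intensity (colour scale, quantile normalized) of the 29 genes and of both MRE11 positions (rows, grouped by role with red lines) in the 14 arrays (columns, white lines between membrane sets). A white x marks a value at or below the local background; in FF18984 these crowd into the high-dose columns at 1 h, with 20 of 29 genes in YPD, while the BY4742 columns have 6 at the high dose and 9 in mock.

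None of the 29 genes passed an adjusted p of 0.05 at either dose: no difference from mock stood far enough outside the disagreement between membrane sets. At the high dose, 19 of the 29 were higher and 10 lower than mock, with a median log2 difference of 0.28 against -0.0032 over all 6095 features tested, and the smallest adjusted p was 0.371 (limma, Benjamini-Hochberg). Across all features 0.082% were called, and an unadjusted p under 0.05 was met by 1 of 29 genes (3.45%), XRS2, against 13.3% of all features. At the low dose, again 19 were higher and 10 lower with a median of 0.10 against -0.0013, 0 of 29 were called against 0% of all features, and EXO1 was the 1 gene with an unadjusted p under 0.05, against 6.43% of all features. Both doses were set against the same mock arrays. These counts and medians hold 16 of 116 set differences at the high dose, and 14 of 116 at the low dose, in which both values were at or below the background. In YPD at 1 h the high-dose median was 0.19 over all 29 genes, against -0.048 over the 23 without such a pair. In the high dose against the low dose, 16 were higher and 13 lower, 0 were called against 0.0328% of all features, and 2 of 29 (6.90%), RAD53 and RDH54, had an unadjusted p under 0.05 against 5.35%. Neither MRE11 position was called in any of these contrasts. Leaving out 1 membrane set turned the sign of 10 of 29 genes at the high dose, RAD50, RAD55, RAD59, SGS1, SRS2, MEC1, RAD17, DPB11, TOF1 and PDS1, of 13 at the low dose and of 14 in high against low dose.

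**Figure D3:**
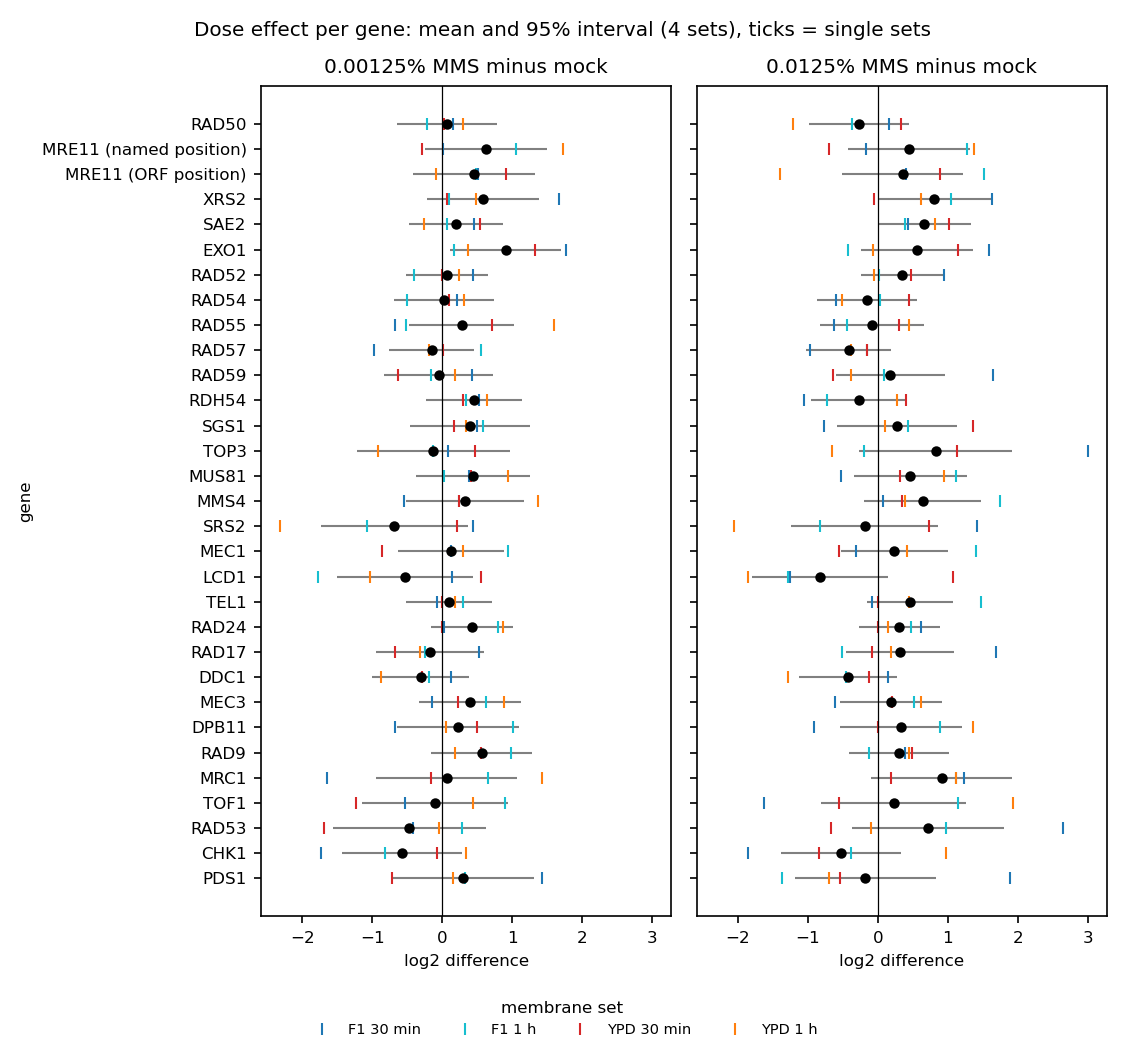
Log2 difference of the low dose (left) and of the high dose (right) from mock for each gene (y axis, in role order) in FF18984. Black points are the mean of 4 membrane sets with the 95% interval of the limma fit, and coloured ticks are the single sets; the ticks of most genes straddle 0, and the high-dose points run from -0.83 for LCD1 to 0.91 for MRC1.

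Among the genes of end binding and resection, the 4 undisputed members were the group with the highest median at the high dose, 0.61 on the log2 scale, with 3 higher and 1 lower than mock and none called. XRS2 encodes the subunit that brings the Mre11 nuclease into the nucleus and tethers Tel1. It was at -1.87, -2.14, 0.71 and -1.80 in mock arrays, -0.20, -2.05, 0.77 and -1.31 at the low dose and -0.24, -1.10, 0.66 and -1.18 at the high dose. The high dose was above mock by 0.81 (SE 0.38, adjusted p = 0.371), with a 95% interval of 0.0063 to 1.61, and the excess lay in 3 of 4 sets, since YPD at 30 min was level. SAE2, a cofactor that starts resection by stimulating the Mre11 nuclease, was at 1.20, -0.71, 1.19 and -1.94 in mock arrays, 1.65, -0.64, 1.73 and -2.20 at the low dose and 1.63, -0.32, 2.20 and -1.12 at the high dose. High-dose SAE2 lay above mock in 4 of 4 sets, by 0.66 (SE 0.31, adjusted p = 0.375), although its 3 values in YPD at 1 h were all at or below the background. At the low dose it differed by 0.20 (SE 0.31, adjusted p = 0.921) with 1 set lower.

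EXO1, the exonuclease of long-range resection, had the smallest low-dose p of the 29 genes, 0.0277 before adjustment. It was at -2.19, -1.50, -2.14 and -1.26 in mock arrays, -0.42, -1.33, -0.81 and -0.89 at the low dose and -0.60, -1.93, -1.0 and -1.33 at the high dose. The low dose stood above mock in 4 of 4 sets, by 0.91 (SE 0.37, adjusted p = 0.724), and the high dose in 2 of 4, by 0.56 (SE 0.37, adjusted p = 0.517). In both 30 min sets the mock value was at or below the background, and in both 1 h sets the treated values were. RAD50, the ATPase that bridges DNA ends, was at -1.97, -1.56, -2.06 and -0.73 in mock arrays, -1.82, -1.78, -2.02 and -0.42 at the low dose and -1.81, -1.93, -1.72 and -1.94 at the high dose. It was the 1 undisputed member of this group that was lower at the high dose than in mock, by -0.27 (SE 0.33, adjusted p = 0.747), and it was lower than at the low dose by -0.34 (SE 0.33, adjusted p = 0.939). That last difference rested on YPD at 1 h, and without this set it was 0.053. Both high-dose RAD50 values at 1 h were at or below the background, and both mock values there were above it.

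The MRE11 positions did not give the same picture. At the named position the levels were -0.40, -2.39, 0.022 and -1.56 in mock arrays, -0.39, -1.33, -0.27 and 0.17 at the low dose and -0.58, -1.11, -0.68 and -0.18 at the high dose, and all 12 were above the background. The ORF position was at -2.08, -2.42, -2.38 and -0.54 in mock arrays, -1.57, -1.93, -1.47 and -0.63 at the low dose and -1.67, -0.90, -1.49 and -1.94 at the high dose, with 3 of 12 at or below the background. High-dose differences from mock were 0.45 (SE 0.41, adjusted p = 0.657) at the named and 0.35 (SE 0.41, adjusted p = 0.731) at the ORF position. The signs of the set differences were opposite in F1 at 30 min, YPD at 30 min and YPD at 1 h, so the position taken for MRE11 decides the sign in those sets.

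Of the 6 strand exchange genes, 2 were higher and 4 lower at the high dose than in mock, with a median of -0.12, and none was called. RAD52 encodes a protein that anneals complementary single strands. It was at -2.02, -1.94, -2.38 and -1.89 in mock arrays, -1.58, -2.35, -2.38 and -1.65 at the low dose and -1.07, -1.93, -1.91 and -1.94 at the high dose. The high dose differed from mock by 0.35 (SE 0.28, adjusted p = 0.605) with 3 of 4 sets higher. In F1 at 1 h, counted as higher by 0.018, the high-dose value was at or below the background and the mock value was not. The low dose differed from mock by 0.068 (SE 0.28, adjusted p = 0.964), and 6 of the 12 values were at or below the background. RAD54, a DNA translocase that drives strand invasion and is known in yeast as a transcript induced by DNA damage, was at 0.99, -0.51, 1.90 and -0.80 in mock arrays, 1.20, -1.02, 2.0 and -0.48 at the low dose and 0.39, -0.48, 2.35 and -1.31 at the high dose. The groups overlapped fully, with a high-dose difference of -0.16 (SE 0.33, adjusted p = 0.864) and a 95% interval of -0.87 to 0.56, and a low-dose difference of 0.030 (SE 0.33, adjusted p = 0.99). Leaving out the F1 30 min or the YPD 1 h set turned the sign at the low dose.

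RDH54, the paralogue of RAD54, was above the background in all 14 arrays. Its levels were 1.46, 1.15, 1.74 and 0.65 in mock arrays, 1.99, 1.50, 2.04 and 1.29 at the low dose and 0.41, 0.43, 2.15 and 0.92 at the high dose. The low dose was above mock in 4 of 4 sets, by 0.45 (SE 0.32, adjusted p = 0.841), while the high dose was lower than the low dose in 3 of 4 sets, by -0.73 (SE 0.32, adjusted p = 0.888) and an unadjusted p of 0.0384. Most of the gap came from the F1 sets. RAD57, which with RAD55 encodes the subunits of a heterodimer that assists strand exchange, was at -1.41, -1.77, -2.23 and -1.56 in mock arrays, -2.38, -1.22, -2.21 and -1.74 at the low dose and -2.38, -1.93, -2.38 and -1.94 at the high dose. It was lower than mock at the high dose in 4 of 4 sets, by -0.42 (SE 0.28, adjusted p = 0.536), but 4 of the 4 high-dose values and 1 of the 4 mock values were at or below the background.

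RAD55 itself was at -1.70, -1.48, -2.24 and -2.38 in mock arrays, -2.38, -2.0, -1.54 and -0.79 at the low dose and -2.32, -1.93, -1.94 and -1.94 at the high dose, with 8 of 12 values at or below the background. It differed by -0.080 (SE 0.35, adjusted p = 0.939) between high dose and mock and by -0.36 (SE 0.35, adjusted p = 0.939) between high and low dose. RAD59, an annealing protein related to Rad52, differed by 0.18 (SE 0.36, adjusted p = 0.852) at the high dose, with 7 of 12 values at or below the background. The set with the widest gap was F1 at 30 min, where RAD59 was at -0.44 at the high dose, against -2.09 in mock, and without that set the difference was -0.31.

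The anti-recombination, dissolution and resolution genes had 4 higher and 1 lower at the high dose, a median of 0.47 and no call. TOP3 encodes the topoisomerase that, with the helicase Sgs1, dissolves joint molecules. It was at -0.89, -1.73, -0.95 and -1.29 in mock arrays, -0.81, -1.87, -0.48 and -2.20 at the low dose and 2.11, -1.93, 0.19 and -1.94 at the high dose. The high-dose value in F1 at 30 min stood far above its set, a difference of 3.01 from mock, and at 1 h the high-dose values were both at or below the background. Over the sets TOP3 was 0.83 (SE 0.51, adjusted p = 0.498) from mock and 0.95 (SE 0.51, adjusted p = 0.888) from the low dose, and without F1 at 30 min these differences were 0.099 and 0.29. SRS2, a helicase that counters recombination, was at -0.063, 0.21, -0.38 and 0.12 in mock arrays, 0.37, -0.86, -0.17 and -2.20 at the low dose and 1.35, -0.62, 0.35 and -1.94 at the high dose. It lay below mock at the low dose by -0.69 (SE 0.49, adjusted p = 0.844) with 2 sets on either side, both 30 min sets above mock and both 1 h sets below it. Without YPD at 1 h, where the low-dose value was at or below the background, the difference was -0.14.

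SGS1 was at -1.42, -0.39, -1.60 and 0.48 in mock arrays, -0.92, 0.20, -1.44 and 0.82 at the low dose and -2.19, 0.041, -0.25 and 0.57 at the high dose, always above the background. It was higher than mock in 4 of 4 sets at the low dose, by 0.40 (SE 0.40, adjusted p = 0.882), and in 3 of 4 at the high dose, by 0.28 (SE 0.40, adjusted p = 0.786). The subunits of a structure-selective nuclease, MUS81 and MMS4, were higher than mock at the high dose by 0.47 (SE 0.38, adjusted p = 0.615) and 0.64 (SE 0.39, adjusted p = 0.493), in 3 and 4 of 4 sets. MUS81 was above the background in all 6 arrays at 30 min and in 2 of 6 at 1 h, and MMS4 in 11 of 12 arrays. The sets counted as higher include YPD at 1 h. There the high-dose and mock values of MUS81 and the high-dose value of MMS4 were at or below the background.

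Among the 8 checkpoint sensors, 6 were higher and 2 lower at the high dose than in mock, with a median of 0.27, and none was called. MEC1, the sensor kinase related to human ATR, was at -1.89, -1.44, -1.38 and -1.79 in mock arrays, -1.77, -0.50, -2.24 and -1.49 at the low dose and -2.20, -0.039, -1.94 and -1.37 at the high dose. The high-dose difference was 0.24 (SE 0.36, adjusted p = 0.793), negative in both 30 min sets and positive in both 1 h sets, and without F1 at 1 h it was -0.15. In F1 at 30 min and in YPD at 1 h the high-dose MEC1 value was at or below the background and the mock value was not. LCD1, the partner that recruits Mec1 to single-stranded DNA, was at 1.83, 0.59, 0.47 and 1.23 in mock arrays, 1.97, -1.18, 1.02 and 0.20 at the low dose and 0.58, -0.69, 1.56 and -0.63 at the high dose. Its high-dose difference from mock, -0.83 (SE 0.45, adjusted p = 0.445), was the lowest of the 29, and 3 of 4 sets were lower. The exception was YPD at 30 min, where LCD1 was at 1.56 at the high dose, against 0.47 in mock, and without that set the difference was -1.46.

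DDC1, a subunit of the checkpoint clamp, was at 1.39, -1.47, 2.25 and -0.66 in mock arrays, 1.51, -1.66, 1.96 and -1.54 at the low dose and 1.54, -1.93, 2.13 and -1.94 at the high dose. It was lower than mock at the high dose in 3 of 4 sets, by -0.43 (SE 0.32, adjusted p = 0.591), with both high-dose values at 1 h at or below the background; the 30 min sets alone gave 0.016. RAD24 was at -2.40, -2.40, -2.38 and -2.09 in mock arrays, -2.38, -1.60, -2.38 and -1.23 at the low dose and -1.79, -1.93, -2.38 and -1.94 at the high dose. At the low dose it lay 0.42 (SE 0.27, adjusted p = 0.84) above mock, but 9 of its 12 values were at or below the background, all 6 at 30 min among them. TEL1 was at -2.30, -2.04, -2.38 and -2.38 in mock arrays, -2.38, -1.74, -2.38 and -2.20 at the low dose and -2.38, -0.56, -2.38 and -1.94 at the high dose. Among the FF18984 sets it was above the background in F1 at 1 h alone, where it was at -0.56 at the high dose, against -2.04 in mock. The other sensors, the clamp subunits RAD17 and MEC3 and the Mec1 activator DPB11, had high-dose differences between 0.19 and 0.33, adjusted p between 0.724 and 0.834.

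Of the 6 mediators and effector kinases, 4 were higher and 2 lower at the high dose than in mock, with a median of 0.26 and no call. MRC1, the replication adaptor that passes the Mec1 signal to Rad53 at forks, had the largest high-dose difference of the 29 genes. It was at -0.24, -2.31, -1.59 and -2.38 in mock arrays, -1.90, -1.66, -1.75 and -0.96 at the low dose and 0.98, -1.20, -1.40 and -1.26 at the high dose. The high dose was above mock in 4 of 4 sets, by 0.91 (SE 0.47, adjusted p = 0.422), and above the low dose by 0.85 (SE 0.47, adjusted p = 0.888); in both 1 h sets the high-dose and mock values were at or below the background, so the comparison between signals rests on the 30 min sets. Without F1 at 30 min the difference from the low dose was 0.17. RAD53, the main effector kinase, was at -1.52, -1.42, -0.47 and -0.074 in mock arrays, -1.94, -1.14, -2.17 and -0.12 at the low dose and 1.12, -0.44, -1.14 and -0.16 at the high dose. It stood above mock at the high dose by 0.72 (SE 0.51, adjusted p = 0.554), with 2 sets on either side, and above the low dose by 1.19 (SE 0.51, adjusted p = 0.888) in 3 of 4 sets. The F1 30 min array at the high dose carried most of this: without that set the differences were 0.075 from mock and 0.56 from the low dose.

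RAD9, the adaptor of the damage checkpoint proper, was at -0.25, -1.80, -0.32 and -2.38 in mock arrays, 0.31, -0.82, 0.23 and -2.20 at the low dose and 0.14, -1.93, 0.18 and -1.94 at the high dose. The low dose was above mock in 4 of 4 sets, by 0.57 (SE 0.34, adjusted p = 0.832), and the high dose in 3 of 4, by 0.30 (SE 0.34, adjusted p = 0.723), although the 3 values in YPD at 1 h were at or below the background. CHK1, the effector kinase that acts on anaphase entry, was at -0.53, -1.54, -1.30 and -1.65 in mock arrays, -2.27, -2.35, -1.38 and -1.32 at the low dose and -2.38, -1.93, -2.15 and -0.67 at the high dose. It was lower than mock in 3 of 4 sets at both doses, by -0.57 (SE 0.40, adjusted p = 0.84) at the low and -0.53 (SE 0.40, adjusted p = 0.591) at the high dose, with all 4 high-dose values at or below the background. PDS1, the securin that holds back anaphase and a target of Chk1, was at -2.25, -0.56, -0.39 and -1.23 in mock arrays, -0.82, -0.23, -1.11 and -1.09 at the low dose and -0.35, -1.93, -0.93 and -1.94 at the high dose. Its high-dose difference of -0.18 (SE 0.47, adjusted p = 0.892) joined 3 lower sets with F1 at 30 min, where it was at -0.35 at the high dose, against -2.25 in mock, and at the low dose it was 0.30 (SE 0.47, adjusted p = 0.921). Without F1 at 30 min the differences were -0.87 at the high and -0.080 at the low dose. Both high-dose PDS1 values at 1 h were at or below the background. TOF1, a fork protection factor that works with Mrc1, differed by 0.23 (SE 0.49, adjusted p = 0.864) at the high dose, with 7 of 12 values at or below the background.

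**Figure D4:**
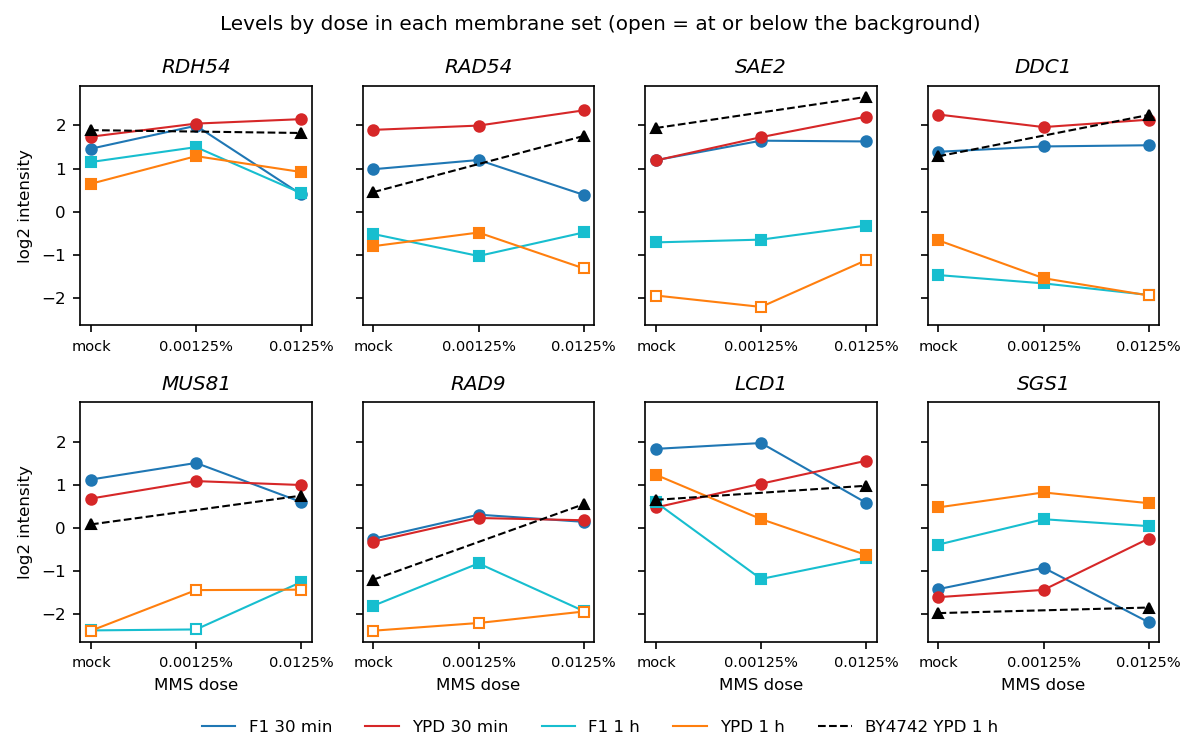
Log2 intensity (y axis) against MMS dose (x axis) for 8 of the genes, chosen after their values were seen. Lines are the 4 FF18984 membrane sets (circles 30 min, squares 1 h) and BY4742 (dashed, triangles), and open symbols are at or below the background; for RAD54, SAE2, DDC1, MUS81 and RAD9 the FF18984 lines at 30 min lie above those at 1 h at every dose.

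The high-dose effect was then set between the times, by a term for the difference itself. None of the 29 genes passed, the smallest adjusted p being 0.111, with 0.23% of all features called; an unadjusted p under 0.05 was met by 7 of 29 genes (24.1%), against 17.1% of all features. TOF1 had the largest positive term, 2.64 (SE 0.68, adjusted p = 0.111). High dose minus mock was 1.55 at 1 h, against -1.09 at 30 min, and the values were -2.38, -1.26, -1.71 and -0.28 in high-dose arrays, against -0.75, -2.42, -1.15 and -2.22 in mock arrays. In F1 at 1 h both arrays were at or below the background, as was the mock array in YPD at 1 h and the high-dose array in F1 at 30 min. Arrays centred on the median in place of quantiles gave 3.03 (adjusted p = 0.0322), and spot integrals without background correction gave -0.86 (adjusted p = 0.0971); over the 9 alternatives tried the adjusted p ran from 0.0322 to 0.585. The named MRE11 position had a term of 1.76 (SE 0.66, adjusted p = 0.199), with high dose minus mock at 1.33 at 1 h, against -0.44 at 30 min, but the ORF position had -0.59 (SE 0.81, adjusted p = 0.743).

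SRS2 and TOP3, the anti-recombination helicase and the dissolution topoisomerase, had the most negative terms. For SRS2 the term was -2.51 (SE 0.70, adjusted p = 0.118), with high dose minus mock at -1.44 at 1 h, against 1.07 at 30 min. For TOP3 it was -2.49 (SE 0.79, adjusted p = 0.144), with -0.42 at 1 h, against 2.07 at 30 min. The high-dose values at 1 h were at or below the background in YPD for SRS2 and in both media for TOP3. Between the media, none of 29 genes passed the same kind of term, with 0% of all features called and 1 of 29 (3.45%) at an unadjusted p under 0.05, against 4.15% of all features. That gene was RAD53, with a term of -2.19 (SE 0.91, adjusted p = 0.953) and high dose minus mock at -0.38 in YPD, against 1.82 in F1. RAD59 had -1.38 (SE 0.69, adjusted p = 0.953), RDH54 1.23 (SE 0.59, adjusted p = 0.953) and CHK1 1.19 (SE 0.77, adjusted p = 0.953). RDH54 was lower than mock at the high dose in both F1 sets and higher in both YPD sets.

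**Figure D5:**
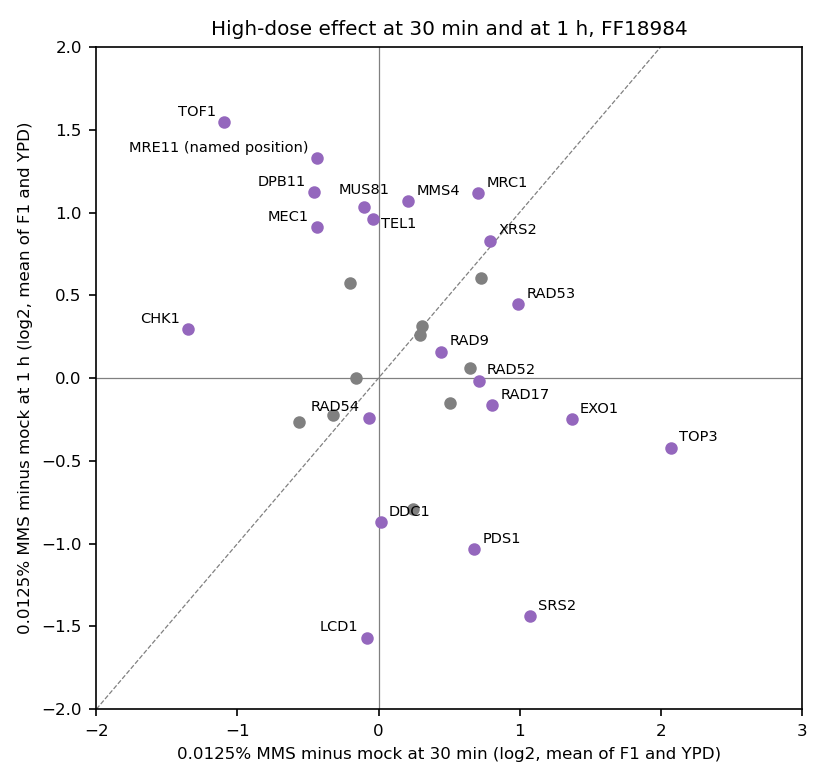
High dose minus mock on the log2 scale at 1 h (y axis) against 30 min (x axis), each the mean of F1 and YPD, for 29 genes and both MRE11 positions; the dashed line marks equal effects. Purple points, labelled, are 0.8 or more from 0 at either time or are among RAD54, RAD52, RAD53, MEC1, RAD9 and PDS1; TOF1 sits at the upper left (1.55 at 1 h, -1.09 at 30 min), and SRS2 and TOP3 at the lower right.

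YPD against F1, over all doses, gave 0 called among the 29 genes where 5.25% of all features were called, and 1 of 29 with an unadjusted p under 0.05 against 20.4% (limma with the membrane set as a random block). XRS2 was that gene, higher in YPD by 0.91 (SE 0.37, adjusted p = 0.176), and the gap was wider at 30 min, 1.48 over the doses, than at 1 h, 0.33. At 30 min its levels were 0.71, 0.77 and 0.66 in YPD, against -1.87, -0.20 and -0.24 in F1, in dose order. DDC1 differed by 0.47 (SE 0.31, adjusted p = 0.425) and the named MRE11 position by 0.62 (SE 0.39, adjusted p = 0.406). Lower in YPD were SRS2, by -0.77 (SE 0.44, adjusted p = 0.352), SAE2, by -0.49 (SE 0.34, adjusted p = 0.458), and TEL1, by -0.38 (SE 0.27, adjusted p = 0.463). SAE2 was higher in YPD at 30 min, by 0.22, and lower at 1 h, by -1.20, where all its YPD values were at or below the background. TEL1 differed by -0.029 at 30 min, where all 6 values were at or below the background, and by -0.73 at 1 h. SRS2 was lower at both times, by -0.62 and -0.92. Medium varied between membrane sets alone, with 1 FF18984 set per medium and time. The consensus correlation within sets was 0.0744. The SE and p-values here therefore treat arrays of 1 set as nearly independent and may understate the spread between sets.

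In single pairs of arrays on 1 membrane, with no replicate and no test, a 2-fold threshold was used and pairs with both values at or below the background were not compared. In FF18984 at the high dose, the genes 2-fold higher than mock were 9 of 26 in F1 at 30 min (18.5% of all features), 5 of 27 in F1 at 1 h (10.3%), 5 of 24 in YPD at 30 min (10.2%) and 2 of 23 in YPD at 1 h (17%). Those 2-fold lower were 4 (19.1%), 2 (9.81%), 0 (10.8%) and 4 (19.1%). At the low dose, 3 of 26 (10.5%), 1 of 28 (8.48%), 1 of 25 (4.5%) and 2 of 23 (15.6%) were 2-fold higher, and 2 in each set were 2-fold lower (10.1%, 9.4%, 4.64% and 16.1% of all features). Over the 9 pairs, BY4742 included, the medians of the compared genes ran from -0.048 to 0.32.

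BY4742 in YPD at 1 h had 2 of 24 genes 2-fold higher at the high dose than in mock and 1 lower, against 5.51% and 4.14% of all features. RAD9 was at 0.55 at the high dose, against -1.20 in mock, and RAD54 at 1.76, against 0.46. The lower gene was XRS2, at -0.18 at the high dose, against 0.98 in mock. In the FF18984 pair of the same medium and time RAD9 was at or below the background in both arrays, RAD54 was at -1.31 at the high dose, against -0.80 in mock, and XRS2 at -1.18, against -1.80. That high-dose RAD54 value was at or below the background. The difference between the strains was not tested. Of the 24 genes compared in BY4742, 14 were higher and 10 lower. Below the 2-fold threshold, SAE2, RAD24 and DDC1 differed from mock by 0.72, 0.73 and 0.96, and EXO1, RAD17 and MRC1 by -0.98, -0.91 and -0.79. The mock value of RAD24 was at or below the background.

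Some genes had levels at 1 h that did not overlap those at 30 min at any dose in FF18984. For 6 of 29 genes every 1 h level lay below every 30 min level, as for 13.6% of all ORFs, and for 1, DPB11, every 1 h level lay above, as for 14.8% of all ORFs. DDC1 averaged -1.53 ± 0.47 at 1 h and 1.80 ± 0.36 at 30 min (SD, n = 6 each), and its BY4742 values were 2.24 at the high dose and 1.29 in mock. MUS81 averaged -1.87 ± 0.55 at 1 h and 1.0 ± 0.33 at 30 min, and SAE2 -1.16 ± 0.76 and 1.60 ± 0.38. RAD54, RAD9 and TOP3 were the others, lower at 1 h by 2.24, 1.89 and 1.69. DPB11 averaged -0.22 ± 0.62 at 1 h and -1.90 ± 0.49 at 30 min.

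The BY4742 arrays, although labelled 1 h, lay nearer the 30 min mean for all 7 of these genes, as for 86.9% of the ORFs whose times did not overlap in FF18984, and for 26 of the 29 genes (89.7%, against 70.8% of all ORFs). Time and membrane move together here and cannot be told apart. For DDC1 the gap was present in the mock arrays too, at -1.47 and -0.66 at 1 h, against 1.39 and 2.25 at 30 min. Of the 6 arrays at 1 h, MUS81 and RAD9 were at or below the background in 4, and SAE2 and TOP3 in 3. DDC1 was so in 2 of them and RAD54 in 1, and DPB11 in 2 of the 6 arrays at 30 min. These level differences are therefore given without a test.

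The wider pathway was represented by 33 listed partner genes, 17 of recombination and 16 of the checkpoint, all measured, of which none was called in any contrast. At the high dose 16 were higher and 17 lower than mock (median -0.076), and 6 had an unadjusted p under 0.05, against 13.3% of all features. DNA2, the nuclease-helicase of long-range resection, was at 0.0034, 2.99, -0.57 and 2.40 in mock arrays, -0.54, 0.64, -1.24 and 2.15 at the low dose and -1.43, 0.59, -1.41 and 0.21 at the high dose. It lay below mock in 4 of 4 sets at both doses, by -1.72 (SE 0.39, adjusted p = 0.131) at the high and -0.95 (SE 0.39, adjusted p = 0.724) at the low dose, and no value was at or below the background. RFC4, a subunit shared by the replication and checkpoint clamp loaders, was higher at the high dose by 0.89 (SE 0.32, adjusted p = 0.259), with 9 of 12 values at or below the background, and YEN1, a junction resolvase, was lower by -1.02 (SE 0.43, adjusted p = 0.327), with both high-dose values at 1 h at or below it. At the low dose CSM3, the partner of Tof1, was lower by -0.97 (SE 0.41, adjusted p = 0.724). In the term for time the smallest adjusted p was that of the clamp loader subunit RFC3, 2.38 (SE 0.58, adjusted p = 0.102), although in YPD the high-dose and mock values at 30 min and the mock value at 1 h were at or below the background, as was the high-dose value in F1 at 30 min. The helicase PIF1 and the single-stranded DNA binding subunit RFA1 had -2.84 (SE 0.85, adjusted p = 0.135) and -2.63 (SE 0.87, adjusted p = 0.153). For PIF1 both high-dose values at 1 h were at or below the background, and for RFA1 both mock values at 30 min were.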

How the data were processed

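Members and gene lists were chosen with earlier results of these data known. Per the file headers, the deposited files give for each of 2 spots at 6912 positions an intensity as spot integral, local background and their difference; no normalization between arrays is recorded, the software is not given in the sources used here, and the authors' series table, also an intensity, served as an alternative. The deposited background-subtracted intensity was divided by each array's median positive value, values below 0 were set to 0, and log2 was taken after a pseudocount of 0.187, the 10th percentile of positive values, which understates changes of dim genes. Values of a gene's spots were averaged before quantile normalization. Symbols came from a RefSeq table for 5567 of 6094 ORFs. No genome build is named, so no coordinates are given.

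Dose was tested with limma 3.58.1 (R 4.3.3; lmFit and trended eBayes) on 12 FF18984 arrays, the membrane set being a block, in separate fits with dose by time and dose by medium, and YPD against F1 with the set as a random block (statmod 1.5.0, consensus correlation 0.0744). Benjamini-Hochberg adjustment ran over 6095 features, and the threshold was 0.05; the fits were tested on simulated data. Since the labels do not state separate cultures, a p-value here speaks of the spread between these samples alone, which may be technical. Named were RAD54, RAD52, RAD53, MEC1, RAD9, PDS1, any called gene and the 3 smallest p per direction and contrast (2 for the interaction terms), and up to 3 partners per contrast; SGS1, MUS81, MMS4, RAD59, RAD17, MEC3, DPB11 and those of BY4742 were added as group members or after their values were seen. A further partner gene is not reported here. The number of arrays limits the precision. Alternatives were the series table, spot integrals with no background correction, cyclic loess, median centring, 4 times the pseudocount, genes above the background in all 12 arrays, no membrane set block, each time alone, each set left out and, chosen after seeing the data, values at or below the background left out. Figures used matplotlib 3.10.9 under Python 3.11.15.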

Additional observations from a re-analysis of the deposited data

Results flagged for a closer look

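Dixon's test was applied to the 4 FF18984 arrays of each dose for each gene and MRE11 position, and 7 of 93 such groups held an array far from the other 3. For arrays of 1 condition, chance alone flags about 1 in 20 groups. Each group here joins both media and both times, and some hold values at the floor, so the count is not read against that rate. The flagged arrays are given as values only, and their cause was not tested. Of the low-dose arrays, YPD at 1 h was the highest for RAD50 (log2 intensity -0.42, the others -2.02 to -1.78) and for MMS4 (-0.46, the others -1.89 to -1.79). At the high dose, F1 at 30 min was the highest for RAD52 (-1.07, the others -1.94 to -1.91) and for MRC1 (0.98, the others -1.40 to -1.20), and the lowest for RAD55 (-2.32, the others -1.94 to -1.93). The RAD55 value and its 3 comparators included 3 values at or below the background, and the RAD52 and MRC1 groups included 2 each. Among mock arrays, YPD at 30 min was the highest for XRS2 (0.71, the others -2.14 to -1.80), and YPD at 1 h the highest for RAD24 (-2.09, the others -2.40 to -2.38), where 2 of the 4 were at or below the background.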

How the results depend on the processing

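No gene of the set was called under any alternative, except TOF1 for the high-dose effect at 1 h against 30 min, where median centring called 1 gene (3.03, adjusted p = 0.0322); that centring moved the median of all genes to 0.41, against 0.023. Over all features, that term called 14 genes as reported, 449 with median centring, 32 without background correction, 158 without the YPD 30 min set and 0 with cyclic loess, the series table or any other set left out; high dose against mock called 5, but 32 with the 30 min sets alone, 12 with the 1 h sets alone, 11 without F1 at 30 min or with values at or below the background left out, 1 with cyclic loess or no membrane set block, and 0 with median centring, no background correction or any other set left out. High against low dose called 2, but 15 at 30 min alone, 11 with values at or below the background left out, 4 of genes always above it, 1 with 4 times the pseudocount, and 0 under the other alternatives that kept the block. The medium term called 0, and 4 without F1 at 1 h; YPD against F1 called 320, and 175 without background correction. The mean of the 9 single-pair medians, 0.14, was 0.013 with median centring and 0.0050 without background correction.

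For the genes named by rule in each contrast, signs turned in 37 of 517 alternative values, and none of these passed the threshold. For high dose against mock these were MRC1 at -0.057 and RAD9 at -0.068 without background correction, MEC1 at -0.026 with median centring, DDC1 at 0.016, MEC1 at -0.43 and PDS1 at 0.68 with the 30 min sets alone, RAD52 at -0.015 with the 1 h sets alone, and RAD54 at 0.012 and PDS1 at 0.65 with values at or below the background left out. For low dose against mock they were, without background correction, CHK1 at 0.11, RAD53 at 0.064, MEC1 at -0.025 and PDS1 at -0.20; with median centring, RAD52 at -0.14 and MEC1 at -0.13; with cyclic loess, RAD54 at -0.088; with the 30 min sets alone, SRS2 at 0.32, LCD1 at 0.34 and MEC1 at -0.37; and with the 1 h sets alone, RAD54 at -0.097, RAD52 at -0.086 and RAD53 at 0.12. High against low dose turned for RAD50, at 0.0045 without background correction and 0.15 at 30 min alone. Without background correction, TOF1 at 1 h against 30 min was -0.86, in YPD against F1 the high-dose effect was -0.22 for CHK1 and 0.052 for RAD59, and the levels were -0.0094 for XRS2 and 0.052 for SAE2. Leaving out 1 set gave ranges of -0.15 to 0.50 for MEC1 and -0.87 to 0.22 for PDS1 at the high dose, -0.065 to 0.21 for RAD54, -0.057 to 0.23 for RAD52, -0.15 to 0.46 for MEC1 and -0.080 to 0.63 for PDS1 at the low dose, and -0.55 to 0.053 for RAD50 in high against low dose. Over all 29 genes, not the named ones alone, leaving out 1 set turned 10 signs at the high dose. It turned 13 at the low dose and 14 in high against low dose. The causes were not tested. For YPD against F1 no result with a set left out is given, since 3 sets leave no spread between sets once medium and time are in the fit. The dose contrasts pair the arrays by membrane set; the labels give no replicate numbers to pair by. Signal over background limits what can be seen: 10 of the 29 genes were at or below it in 6 or more of 12 arrays.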
